A study of Sus scrofa with 3 samples.

Results

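The miR-183 cluster is a group of microRNAs (miRNAs), miR-183, miR-96 and miR-182, whose hairpins lie close together on 1 strand of the genome. Its members were taken by name from the deposited tables of named miRNAs in pig liver. They make up 3 of the 677 hairpin names in the tables and gave reads from 5 arms, where an arm is the 5′ (5p) or 3′ (3p) side of a hairpin. Male pigs of the Jinhua breed, native to China, gave liver at embryonic day 90 (E90, in late gestation), postnatal day 30 (P30d, the stage of weaning) and postnatal year 7 (P7y, adult). No treatment or genetic change is named for any group. The labels name 3 pigs per stage but give 1 small RNA library per stage, and do not state if the animals' RNA was pooled. There are therefore no replicates, so no difference below has a replicate check, no p-value is given, and each comparison sets 1 library against another. Intervals are 95% and cover counting error only, and PCR copies of a molecule are not independent of each other.

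In human and mouse the miR-183 cluster is transcribed as a single precursor from which the 3 miRNAs are cut. It is best known from sensory cells of the ear and eye, where changes in the seed of miR-96, the bases that pair with target mRNAs, cause hearing loss in both species. In mouse liver the locus is known to be switched on by a sterol-sensing transcription factor, and all 3 miRNAs are often raised in human liver tumours. The transcription factor FOXO1, which drives glucose production in hepatocytes, is a known target of miR-96 and miR-182 in human cells.

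The 3 mature miRNAs are shown here because their seeds, bases 2 to 8 in capitals, are near-identical and set which mRNAs each can pair with. Each is the representative read of its 5p arm at E90, as DNA letters.
miR-183-5p: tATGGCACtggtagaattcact
miR-96-5p: tTTGGCACtagcacatttttgct
miR-182-5p: tTTGGCAAtggtagaactcacact
Positions are counted from 1 at the 5′ end. miR-182-5p and miR-96-5p differ in the seed by A8C alone, and miR-96-5p and miR-183-5p by T2A alone, so all 3 share the central bases of the seed. Over the whole read miR-182-5p is closer to miR-183-5p, with 18 of 22 bases identical, than to miR-96-5p, with 12 of 23. miR-96-5p and miR-183-5p share 13 of 22.

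The hairpins lie in the order mir-183, mir-96 and mir-182 on the plus strand of chromosome 18 (Sscrofa10.2), at chr18:20030634-20030739, chr18:20030880-20030979 and chr18:20035199-20035303. There are 140 bases between mir-183 and mir-96 and 4219 between mir-96 and mir-182, and the span is 4670 bases. Their predicted folding energies are -42.5, -47.4 and -44.5 kcal/mol in that order. The hairpins are shown with the mature 5p read in capitals, to place each miRNA on its precursor.
mir-183: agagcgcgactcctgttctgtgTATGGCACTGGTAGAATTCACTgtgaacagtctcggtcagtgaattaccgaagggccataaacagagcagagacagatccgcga
mir-96: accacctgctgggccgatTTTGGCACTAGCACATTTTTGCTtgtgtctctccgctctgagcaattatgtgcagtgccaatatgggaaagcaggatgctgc
mir-182: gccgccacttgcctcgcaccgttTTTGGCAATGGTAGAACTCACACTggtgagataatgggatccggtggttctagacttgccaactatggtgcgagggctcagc
They are 106, 100 and 105 bases long in this order. Whether the span lies in an exon or intron was not analysed here. The tables place mir-183 and mir-182 among known pig miRNAs and mir-96 among miRNAs known from other mammals. No predicted hairpin contained an 18-base core of any member's 5p read, and reads of the other arm were not searched.

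The 3 libraries held 3622988 to 9920203 reads of named miRNAs, to which levels were scaled as CPM (reads per 1000000), and P30d was the shallowest. A count of 0 allowed up to 0.325 CPM at E90, 0.828 CPM at P30d and 0.302 CPM at P7y. The list of hepatocyte miRNAs held 40.7% of reads at E90, 38.8% at P30d and 42.4% in P7y liver, a sum over members that moved in different directions. miR-122-5p, the major miRNA of hepatocytes, held 128017 CPM at E90, 213802 CPM at P30d and 37870 CPM at P7y. Between libraries, 323 miRNA arms with a mean of 10 CPM or more were compared, and one was called higher or lower where it differed by 2-fold or more (log2 ratio of 1) with an interval that excluded 0. The 5p arms of the 3 members passed that filter, and the 2 other arms with reads, both 3p, did not.

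The cluster was a minor part of the liver profile at every stage and was most abundant before birth. Summed over all arms it held 9850 reads at E90, 392 reads at P30d and 1190 reads at P7y. This came to 1066 CPM (interval 1045 to 1087) at E90, 108 CPM (97.8 to 119) at P30d and 120 CPM (113 to 127) at P7y. The E90 library stood far above both later ones, whose intervals overlap each other.

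miR-182-5p, the member most often tied to tumours and a repressor of FOXO1 in human cells, was the most abundant member in every library. It held 469 CPM at E90 (4339 reads, interval 456 to 484), 52.2 CPM at P30d (189 reads, 45.0 to 60.2) and 66.4 CPM at P7y (659 reads, 61.5 to 71.7). Its rank by level was 100 of 785 miRNA arms with a read at E90, 210 of 739 at P30d and 146 of 567 in the P7y library. Its level was thus highest at E90 and lowest at P30d, and no intervals overlapped.

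miR-183-5p, which gives the cluster its name, followed closely at E90 and less closely later. It held 421.5 CPM at E90 (3896 reads, 408 to 435), 32.6 CPM at P30d (118 reads, 27 to 39) and 30.3 CPM at P7y (301 reads, 27 to 34). It ranked 105 at E90, 239 at P30d and then 184 at P7y. The levels at P30d and P7y could not be told apart within counting error.

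miR-96-5p, the member whose seed changes cause deafness, was the least abundant in every library. It held 172 CPM at E90 (1588 reads, 163 to 180), 23.5 CPM at P30d (85 reads, 18.7 to 29) and 23.2 CPM at P7y (230 reads, 20.3 to 26.4). Its ranks were 147, 258 and 199 across the stages. At P30d its interval overlaps that of miR-183-5p, so the order of these neighbours is not settled there, whereas at E90 and P7y the intervals of all 3 members are apart.

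**Figure D1:**
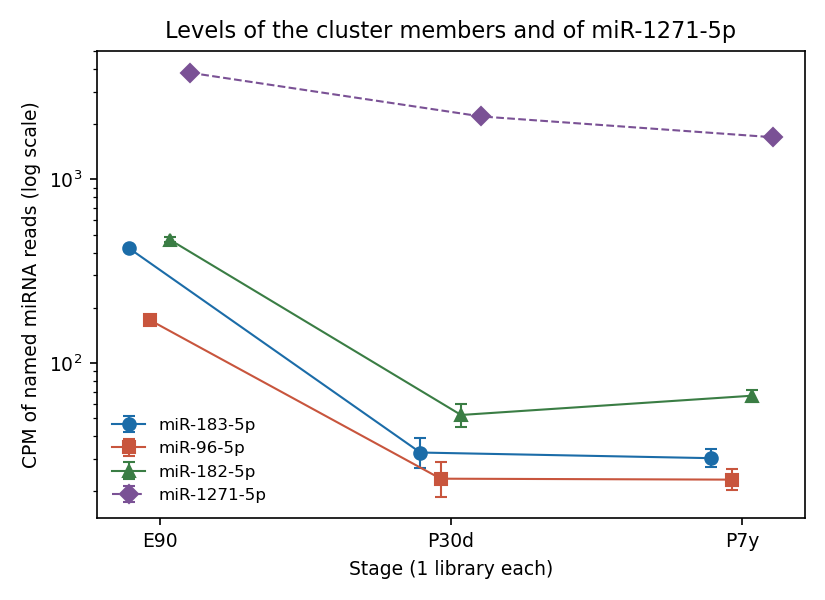
Level in CPM (log scale) of the 5p arms of miR-183, miR-96 and miR-182, and of miR-1271-5p, in the libraries of E90, P30d and P7y, with exact Poisson 95% intervals. The 3 members lie between 172 and 469 CPM at E90 and between 23.2 and 66.4 CPM in both later libraries, while miR-1271-5p is at 1700 CPM or more in each library.

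The first comparison sets young liver after birth against late fetal liver. All 3 members were lower at P30d than at E90. miR-183-5p stood at 32.6 CPM at P30d against 421.5 CPM at E90, 12.9-fold lower (log2 ratio -3.69, interval -3.97 to -3.43). miR-182-5p was 9.0-fold lower at P30d (-3.17, -3.39 to -2.96) and miR-96-5p 7.32-fold lower (-2.87, -3.20 to -2.56). The call of 3 of 3 members as lower is read against 35.3% of all 323 arms called lower, while 33.4% were called higher. Of the 323 arms, 27 had a ratio below that of miR-183-5p, 42 below that of miR-182-5p and 49 below that of miR-96-5p, and the median log2 ratio of all was -0.11. In tissue libraries such as these, fewer cells that make a miRNA and less of it per cell cannot be told apart.

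The second comparison sets old adult liver against young liver. By CPM no member was called at P7y relative to P30d, beside 13.3% of arms called higher and 56.0% called lower. miR-182-5p was at a log2 ratio of 0.35 (0.11 to 0.59), miR-96-5p at -0.02 (-0.38 to 0.36) and miR-183-5p at -0.10 (-0.41 to 0.22). The median of the 323 arms was -1.37, so relative to it the members stood at 1.72, 1.35 and 1.27 in the same order. Of the 323 arms, 254 had a ratio below that of miR-182-5p, 236 below that of miR-96-5p and 233 below that of miR-183-5p. This comparison depends on scaling, because TMM moved the median by 0.99 and DESeq2 by 1.17, and it gave 86 arms higher and 117 lower under TMM against 43 and 181 under CPM. Under TMM miR-182-5p was called higher at P7y (1.34), while miR-96-5p (0.97) and miR-183-5p (0.89) turned positive and stayed under the 2-fold rule. Under DESeq2 factors all 3 were called higher (1.52, 1.15 and 1.07), beside 98 of the 323 arms called higher and 101 lower.

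The third comparison sets old adult against late fetal liver. All 3 members were lower at P7y than at E90 under CPM, beside 50.8% of all arms called lower and 12.1% called higher, and under TMM, where the split of all arms was 89 higher and 108 lower. miR-183-5p was 13.9-fold lower at P7y (log2 ratio -3.80, interval -3.97 to -3.63), miR-96-5p 7.41-fold lower (-2.89, -3.10 to -2.69) and miR-182-5p 7.07-fold lower (-2.82, -2.94 to -2.70). Relative to the median of all arms, -1.07, they were at -2.72, -1.81 and -1.75. With TMM or DESeq2 factors the summed cluster was at -2.15 or -2.05, against -3.15 by CPM, and was called lower in each case.

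**Figure D2:**
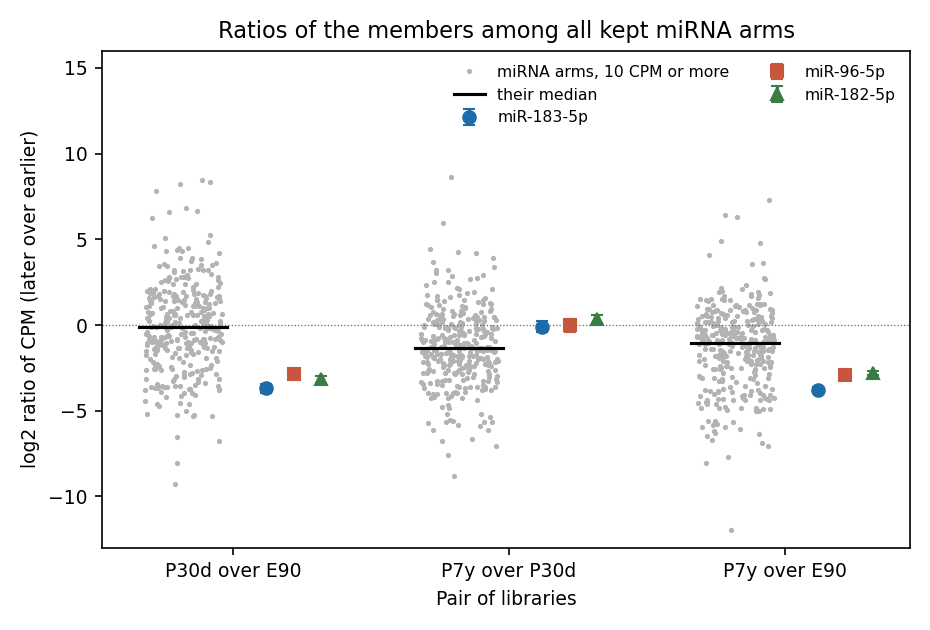
Log2 ratio of CPM, later over earlier library, for the 3 pairs of libraries; grey points are miRNA arms with a mean of 10 CPM or more (those without a read in both libraries of a pair are not drawn), black bars their median and coloured points the 3 members with exact conditional 95% intervals. The members lie below the median in both pairs with E90 and above it for P7y over P30d.

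The 3 members kept the same direction from E90 but not the same size of difference. Of the 3, miR-183-5p differed most in both pairs that include E90. Its log2 ratio for P30d over E90 was below that of miR-96-5p, by 0.82 (the difference of miR-96-5p minus miR-183-5p; interval 0.39 to 1.25), and below that of miR-182-5p by a difference of 0.52 (0.18 to 0.87). For P7y over E90 the same differences were 0.91 (0.64 to 1.17) and 0.98 (0.77 to 1.19). miR-182-5p and miR-96-5p did not differ beyond counting error, with a difference of miR-182-5p minus miR-96-5p of -0.30 (-0.68 to 0.10) for P30d over E90 and 0.07 (-0.17 to 0.31) for P7y over E90. For P7y over P30d only the difference of miR-182-5p minus miR-183-5p, 0.45 (0.05 to 0.85), excluded 0.

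These differences between members depend on which reads are counted, whereas the libraries' scaling cancels out of them. With only the representative read of each arm, miR-182-5p minus miR-183-5p for P7y over E90 was -0.12 (-0.42 to 0.18) and miR-96-5p minus miR-183-5p was 0.29 (-0.12 to 0.69), so neither excluded 0. With only reads without a mismatch, the first was 0.79 (0.58 to 1.0) and the second 0.16 (-0.16 to 0.47). For P30d over E90 the difference of miR-96-5p minus miR-183-5p excluded 0 in both cases, at 1.37 and 0.72, whereas miR-182-5p minus miR-183-5p was 0.47 (-0.10 to 1.08) by representative reads. For P7y over P30d miR-182-5p minus miR-183-5p was -0.60 (-1.25 to 0.04) by representative reads and 0.34 (-0.08 to 0.75) by mismatch-free reads. In that pair miR-96-5p minus miR-183-5p was 0.09 (-0.41 to 0.58) by all reads. It excluded 0 by representative reads, at -1.08 (-1.86 to -0.30), and by mismatch-free reads, at -0.56 (-1.11 to -0.01). There miR-182-5p minus miR-96-5p was 0.48 (-0.20 to 1.15) by representative reads and 0.91 (0.40 to 1.40) by mismatch-free reads. miR-182-5p minus miR-96-5p for P7y over E90 was -0.41 (-0.79 to -0.03) by representative reads and 0.63 (0.35 to 0.92) by mismatch-free reads, so its direction depended on the reads counted. By representative reads it was -0.89 (-1.47 to -0.30) for P30d over E90. At P7y the representative read of miR-96-5p is another sequence than at E90 and P30d. Ratios of miR-96-5p by representative reads that include P7y thus compare different reads.

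The make-up of the cluster's reads differed accordingly. miR-182 made up 44.2% of the cluster's reads in the E90 library (95% interval by the exact Clopper-Pearson method 43.2 to 45.2), 48.2% at P30d (43.2 to 53.3) and 55.4% in P7y liver (52.5 to 58.2). miR-183 made up 39.6% at E90 (38.7 to 40.6), 30.1% at P30d (25.6 to 34.9) and 25.3% in P7y liver (22.8 to 27.9). miR-96 made up 16.1% at E90 (15.4 to 16.9), 21.7% at P30d (17.7 to 26.1) and 19.3% in P7y liver (17.1 to 21.7). There were thus 1.11 reads of miR-182-5p per read of miR-183-5p at E90, 1.60 at P30d and 2.19 in P7y liver. By representative reads alone miR-182 made up 49.4% at P7y against 53.3% at E90, so its share was not higher at P7y. By these reads miR-183 made up 33.5% against 33.0%, so its share was not lower. By mismatch-free reads both differences stayed, with miR-182 at 59.2% at P7y against 46.5% at E90 and miR-183 at 28.1% against 38.1%. The share of miR-96 was not higher at P7y by mismatch-free reads, at 12.7% (10.8 to 14.9) against 15.4% at E90 (14.7 to 16.2). By representative reads it was 17.1% at P7y against 13.7% at E90. The representative read held 60.5% of miR-183-5p reads at P7y against 29.6% at E90, so it does not stand for the same part of the arm.

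**Figure D3:**
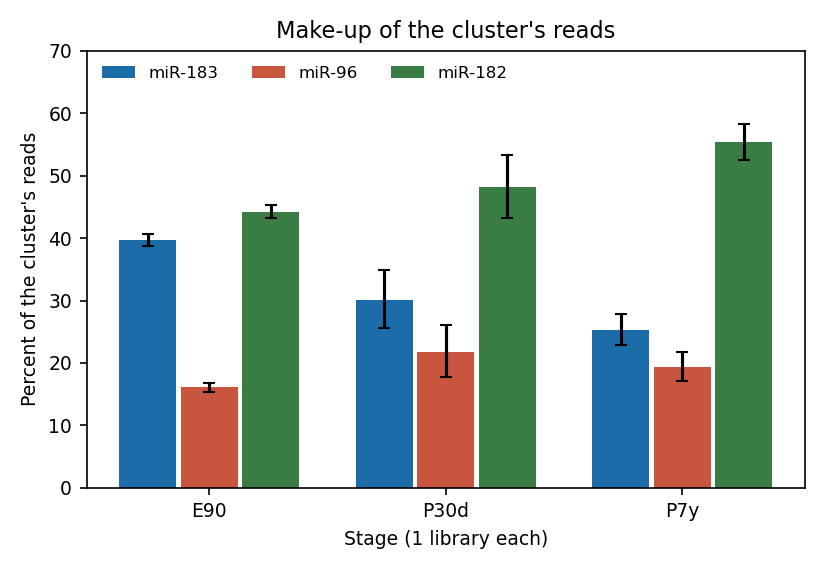
Percent of the cluster's reads that belong to miR-183, miR-96 and miR-182 in each library, both arms summed, with exact Clopper-Pearson 95% intervals. The bar of miR-182 is the tallest in each library, and that of miR-183 is 25.3% at P7y against 39.6% at E90. This difference is absent by representative reads alone (33.5% against 33.0%) and present by mismatch-free reads (28.1% against 38.1%).

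As a yardstick for how closely members move together, the spread was taken as the largest minus the smallest log2 ratio among the more abundant arms of a cluster. For the miR-183 cluster it was 0.82 for P30d over E90, 0.45 for P7y over P30d and 0.98 for P7y over E90. Of 22 other clusters listed, 20 had at least 2 members past the filter, and their spread had a median of 1.75, 2.80 and 1.33 in the same pairs. A smaller spread than that of the miR-183 cluster was found in 2, 3 and 8 of the 20. Among the 6 with 3 members past the filter it was 1.13 to 6.46 for P30d over E90, 0.24 to 3.16 for P7y over P30d and 0.82 to 4.36 for P7y over E90. Each added member can only widen the spread, and some miRNAs, such as miR-24 and miR-29b, are counted from more than 1 locus. These values are therefore a description. By representative reads the spread of the miR-183 cluster was 1.37, 1.08 and 0.41 in the same pairs. The other clusters were not recounted by representative reads, so these values cannot be set against theirs.

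**Figure D4:**
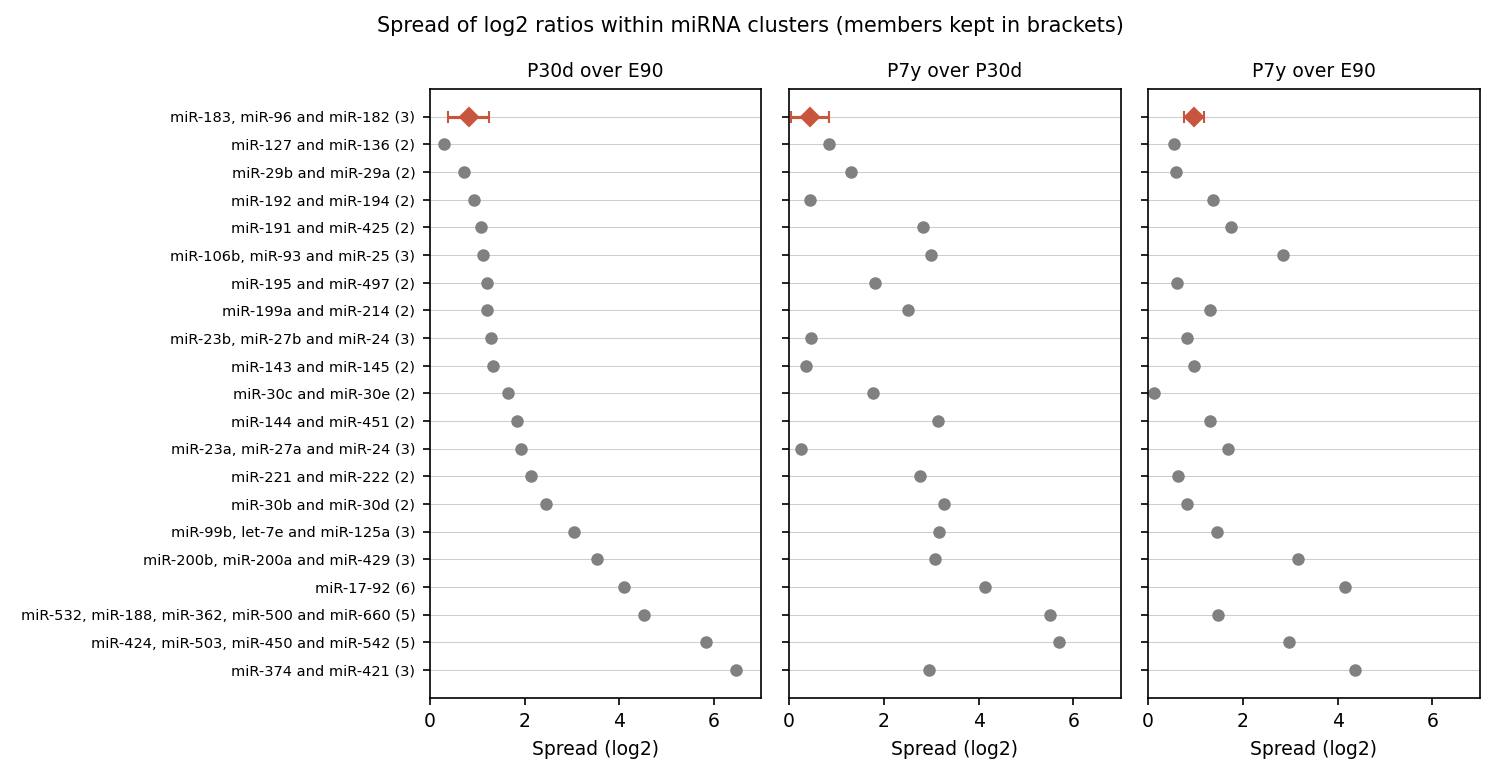
Spread of log2 ratios (largest minus smallest, later over earlier) among the more abundant arms of each miRNA cluster, in 1 panel per pair of libraries; grey points are 20 other clusters, with the number of members past the filter in brackets, and the red diamond is the miR-183 cluster with the interval of the difference between its extreme members. The diamond is at 0.82, 0.45 and 0.98 from left to right, against medians of 1.75, 2.80 and 1.33 for the others.

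The 5p arm carried nearly all reads of each hairpin. At E90 the 3p arm had 9 of 3905 reads of mir-183 (0.230%, interval 0.105 to 0.437) and 18 of 4357 reads of mir-182 (0.413%, 0.245 to 0.652). No 3p read of mir-96 was found among 1588, which allows a share of up to 0.189%. The 3p reads at E90, with bases 2 to 8 in capitals, have seeds unrelated to those of the 5p arms.
miR-183-3p: tGAATTACcgaagggccataaact
miR-182-3p: tGGTTCTAgacttgccaact
Neither was read at P30d or P7y, where 0 of 189 reads of mir-182 allows a 3p share of up to 1.59% at P30d and 0 of 659 up to 0.455% at P7y. For mir-183 and mir-96 the limits were 2.54% and 3.53% at P30d, and 0.997% and 1.30% at P7y. The 5p arm was thus the major arm in every library. A 3p share above that of E90 but below these limits was not detectable at this depth. By level, miR-182-3p had 0 reads at both later stages, against 1.95 CPM at E90, and the interval of its log2 ratio to E90 ended at -0.79 for P30d and at -2.24 for P7y. miR-183-3p likewise had 0 reads later, against 0.974 CPM at E90, and its interval reached 0.37 for P30d, so no difference was shown there, and ended at -1.08 for P7y.

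The reads of the members also differed in how exactly they matched their hairpins. Of miR-96-5p reads, 12.6% (200 of 1588, interval 11.0 to 14.3) had a mismatch at E90, 16.5% (14 of 85, 9.31 to 26.1) at P30d and 41.3% (95 of 230, 34.9 to 48.0) at P7y. Of miR-183-5p reads, 12.2% (11.2 to 13.2) had one at E90, 10.17% (5.37 to 17.1) at P30d and 0.997% (3 of 301, 0.206 to 2.88) at P7y. miR-182-5p stayed between 4.06% at E90 and 6.88% at P30d. The medians over 245 arms with at least 50 reads in each library were 12.3% at E90, 14.7% at P30d and 17.5% in the P7y library. At P7y, 42 of these 245 arms had a larger share than miR-96-5p, and 235 had a larger share than miR-183-5p. The 2 members thus stood on opposite sides of the median in the same library.

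Almost all mismatched miR-96-5p reads at P7y were 1 sequence, which is shown with its last base, absent from the hairpin at that place, in capitals.
miR-96-5p representative read at P7y: tttggcactagcacatttttgA
It ends 1 base earlier than the representative read of E90 and P30d and differs from it by C22A, and the seed is the same. It had 93 copies, 40.4% of the arm's reads (34 to 47.1). The tables list 1 read per arm, so its level at E90 and P30d is known only to be no more than all mismatched reads there, 12.6% and 16.5%. Reads of miR-96-5p without a mismatch numbered 1388 at E90, 71 at P30d, and 135 in the P7y library. The representative read of miR-183-5p held 29.6% of its arm at E90, 32.2% at P30d and 60.5% at P7y (54.7 to 66.0), whereas that of miR-182-5p held 42.8% at E90, 45.0% at P30d and 40.8% in P7y liver.

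**Figure D5:**
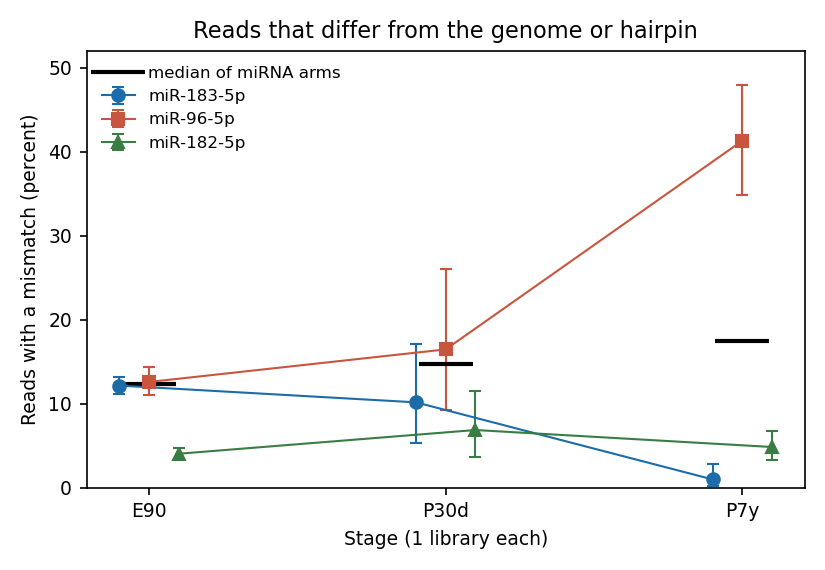
Percent of reads with a mismatch for the 5p arms of miR-183, miR-96 and miR-182 in each library, with exact Clopper-Pearson 95% intervals; black dashes are the medians over 245 miRNA arms with at least 50 reads in each library. At P7y miR-96-5p is at 41.3% and miR-183-5p at 0.997%, on either side of the median of 17.5%.

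The seed of miR-96 was also carried by a far more abundant miRNA outside the cluster. miR-1271-5p, which in human cells shares targets with miR-96, comes from the minus strand of chromosome 2 (chr2:83154205-83154313). It is shown by its representative read at P30d, with bases 2 to 8 in capitals.
miR-1271-5p: cTTGGCACctagtaagcactca
All 7 seed bases match miR-96-5p, while 9 of 22 bases match over the whole read. It held 3811 CPM at E90 (interval 3771 to 3851), 2204 CPM at P30d (2156 to 2253) and 1700 CPM at P7y (1674 to 1726). Of the reads of both, miR-96-5p made up 4.31% at E90 (4.11 to 4.53), 1.05% at P30d (0.84 to 1.30) and 1.35% in P7y liver (1.18 to 1.53). There were 22.2 reads of miR-1271-5p per read of miR-96-5p at E90, 93.9 at P30d and 73.3 in P7y liver. For P30d over E90 miR-1271-5p was at a log2 ratio of -0.79 (-0.83 to -0.76), less than the 2-fold rule, against -2.87 for miR-96-5p. For P7y over E90 miR-1271-5p was at -1.16 (-1.19 to -1.14) and was called lower, beside 50.8% of all arms. That is -0.09 relative to the median of all arms, against -1.81 for miR-96-5p. No other miRNA arm had a representative read with the seed of miR-183-5p or miR-182-5p, and that of miR-96-5p was otherwise found in 3 reads at E90 and 1 at P30d, which the tables name miR-507-3p. The remaining reads of that name, which held 59.5 CPM at E90 with these included, had another seed.

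The miRNAs whose pattern over the 3 libraries lay closest to that of the summed cluster were picked by the Euclidean distance of centred log2 CPM among 320 other arms. They were miR-411a-5p (distance 0.17), miR-130b-5p (0.28), miR-411c-5p (0.42), miR-500-3p (0.61) and miR-127-3p (0.62). miR-411a-5p held 221 CPM at E90, 20.1 CPM at P30d and 26.4 CPM at P7y, and miR-130b-5p 140.6, 18.5 and 16.5. The members themselves were at distances of 0.24 (miR-182-5p), 0.30 (miR-96-5p) and 0.46 (miR-183-5p) from their own sum. With 3 libraries, likeness of pattern is a description only.

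Marker lists of epithelial, pancreatic and sensory or neural tissue also held their largest share of reads in the E90 library. These lists overlap and are not independent. miR-375 (11917 reads at E90) is in the epithelial and pancreas lists, and miR-7 (6605 reads) in the pancreas and neural lists. The epithelial list held 0.214% of reads at E90, 0.0702% at P30d and 0.0983% in P7y liver, and the cluster held 0.107%, 0.0108% and 0.0120%. Of 7 epithelial arms past the filter (of 15 with a read), 3 were called higher and 4 lower at P30d than at E90, with a median of -1.90, beside 33.4% and 35.3% of all arms. At P7y 5 of the 7 were lower than at E90 and 0 higher, beside 50.8% and 12.1% of all arms. One list member, miR-203-3p, is split in the tables between 2 names of 1 mature sequence, miR-203 and miR-203a. With names merged, a choice made after seeing the data, the list held 0.236% at E90, 0.0702% at P30d and 0.132% in P7y liver, and 2 of 7 arms were higher and 4 lower at P30d than at E90. miR-200b-3p, a keeper of epithelial identity, stood at 613 CPM in the E90 library, 115 CPM at P30d and 178 CPM at P7y. miR-375-3p, a miRNA of islet and epithelial cells, stood at 1289 CPM in the E90 library, 104 CPM at P30d and 706 CPM at P7y. miR-200a-3p (86.1, 187 and 37.6 CPM across the stages) was highest at P30d instead, and miR-203-3p under both names (251, 235 and 375 CPM) was highest at P7y.

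Among pancreas miRNAs, miR-216a, miR-216b and miR-217, which mark the exocrine pancreas, had 430 reads together at E90 (46.5 CPM), 5 reads at P30d and 0 reads at P7y. The whole pancreas list, which includes miR-375 and miR-7, held 0.205% at E90, 0.0417% at P30d and 0.0891% in P7y liver. Of its 3 arms past the filter, 1 was higher and 2 lower at P30d than at E90, beside 33.4% and 35.3% of all arms. The sensory and neural list held 0.694% at E90, 0.215% at P30d and 0.0751% in P7y liver, most of it miR-204 and miR-184, with 3196 CPM of miR-184-3p at E90 alone. miR-124, the defining miRNA of neurons, was at 0 reads in all 3 libraries. Of 6 arms of that list past the filter, 1 was higher and 2 lower at P30d than at E90, and 4 were lower at P7y than at E90, beside 50.8% of all arms, so these counts lie near the background. The part of these tissues in the level of the cluster was not tested.

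The other lists held their largest share of reads at P30d or P7y, and their counts are read against 33.4% of all arms higher and 35.3% lower at P30d than at E90. Erythroid miRNAs held 1.05% at E90, 1.28% at P30d and 0.290% in P7y liver, and 2 of 8 arms were higher and 3 lower at P30d than at E90. Leukocyte miRNAs made up 0.234%, 0.842% and 0.221% across the stages from E90 to P7y, with 4 of 8 arms higher and 1 lower at P30d. Striated muscle miRNAs held 0.0176%, 0.0383% and 0.00847%, with 2 of 2 higher at P30d. Hepatocyte arms were higher in 6 of 13 cases and lower in 1 at P30d than at E90, and lower in 8 and higher in 2 at P7y than at P30d, beside 56.0% of all arms lower and 13.3% higher.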

How the data were processed

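Small RNA of 14 to 40 nt from liver was sequenced on an Illumina Genome Analyzer II, 1 library per stage, per the labels' protocols. The authors' deposited tables give, per hairpin and arm, the number of reads of all mature variants as an expected count, since reads that map to several hairpins may be shared among them, and the count of copies of 1 representative read, the one of highest score per the file headers. Hairpin folding used UNAFold, per the file headers. The build is Sscrofa10.2, per the submitters' processing notes. For the aligner, nothing is given in the sources used here.

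Estimated counts were rounded to whole reads for intervals. Reads were summed per miRNA arm over the tables' classes of named miRNAs, and 22 of 1007 arm names that shared a dominant read with another were merged. The libraries held 9243596 reads of named miRNAs at E90, 3622988 at P30d and 9920203 at P7y, so 1 read was worth 0.108, 0.276 and 0.101 CPM. These totals scaled the counts to CPM. Of 971 arms with a read, 323 with a mean of 10 CPM or more were compared. Ratios are later over earlier library. They carry exact conditional binomial intervals, shares have exact Clopper-Pearson intervals and levels exact Poisson intervals. A count of 0 was set to 3 reads. Differences between members use the conditional odds ratio of the 2-by-2 table of their reads. With 1 library per stage no count test was run, and edgeR and DESeq2 served only for scaling factors. Counts were simulated with 200 of 323 arms changed and with counting error alone. In each pair of libraries 100% of changes of 3-fold and 8-fold and 0% of unchanged arms were called. Of the intervals, 95.0% to 95.4% held the true ratio. The simulation had no variation between animals or libraries and no shift in scaling. It therefore checks the calculation only and does not give the error of calls in the real libraries.

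Named miRNAs were all arms of the members, those with a member's seed, the 5 nearest in pattern and up to 4 per marker list. miR-216a, miR-216b, miR-217 and miR-124, as defining markers, miR-203a, miR-24 and miR-29b fall outside this rule and were named after their values were seen. The members, the marker lists and the list of clusters were chosen with earlier results of these data known. Chromosome numbers come from the sequence accessions in the files, matched to RefSeq's chromosome names. Alternatives were other scaling (TMM, DESeq2), other totals, filters and sets of reads. Work was done in R 4.3.3 with edgeR 4.0.16 and DESeq2 1.42.0, and in Python 3.11.15 with SciPy 1.17.1, NumPy 2.4.6, pandas 2.3.3 and matplotlib 3.10.9.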

Additional observations from a re-analysis of the deposited data

Results flagged for a closer look

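The opposite strand of the mir-183 hairpin also gave reads, which enter no comparison above. The tables carry them under the name of rat mir-3553, on the minus strand at chr18:20030641-20030736, with 34 reads in the E90 library, 1 in the P30d library and 9 in the P7y library. These are 3.68 CPM at E90, 0.276 CPM at P30d and 0.907 CPM at P7y. The E90 and P7y counts stood out because they exceed the 3 reads that a count of 0 allows, in a locus where no other named or predicted hairpin lies besides the 3 members. The representative read is shown with bases 2 to 8 in capitals.
miR-3553-5p: tTATGGCCcttcggtaattcac
Its reverse complement lies at chr18:20030695-20030716 on the plus strand, at positions 62 to 83 of the mir-183 hairpin, and 21 of its 22 bases lie opposite the miR-183-3p read. At E90 miR-183-3p had 9 reads and miR-183-5p had 3896.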

How the results depend on the processing

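No paired analysis was possible because each stage has 1 library and the labels carry no replicate numbers. Of 201 alternative values of 43 results, 138 were classed as unchanged. A ratio was so classed if it kept its direction and its side of the 2-fold rule. Counts of arms had to stay close in size, and spreads and shares within the main interval. Differences between members had to keep their direction and whether their interval excluded 0. The cluster's ratio was unchanged in 8 of 8 alternatives for P30d over E90 (-3.40 to -3.10). The same held for P7y over E90 (-3.23 to -2.05). For P7y over P30d the cluster was at 1.14 under TMM and 1.32 under DESeq2, miR-182-5p at 1.34 and 1.52, miR-183-5p at 0.89 and 1.07 and miR-96-5p at 0.97 and 1.15. Without the 5 most abundant miRNAs in the total, miR-183-5p was at 0.22 and miR-96-5p at 0.30, and with predicted hairpins in the total miR-96-5p was at 0.040. miR-183-5p was at 0.17 by mismatch-free reads and 0.89 by the representative read. miR-182-3p for P30d over E90 was at -0.68 by the representative read, and miR-183-3p for P7y over E90 at -0.68 under TMM and -0.59 under DESeq2, all with 0 reads set to 3 and short of the rule.

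Differences between members were tried by other reads after the data were seen. By the representative read, miR-182-5p minus miR-183-5p was 0.47 for P30d over E90, -0.60 for P7y over P30d and -0.12 for P7y over E90. By that read, miR-96-5p minus miR-183-5p was -1.08 for P7y over P30d and 0.29 for P7y over E90, and miR-182-5p minus miR-96-5p was -0.89 for P30d over E90 and -0.41 for P7y over E90. By mismatch-free reads, miR-182-5p minus miR-183-5p was 0.34 and miR-96-5p minus miR-183-5p -0.56 for P7y over P30d, miR-182-5p minus miR-96-5p was 0.91 there and 0.63 for P7y over E90, and miR-96-5p minus miR-183-5p was 0.16 for P7y over E90. The spread was 1.37, 1.08 and 0.41 by the representative read for P30d over E90, P7y over P30d and P7y over E90, and 0.91 by mismatch-free reads for P7y over P30d. At P7y the representative read of miR-96-5p is another sequence than before, so these values compare different reads.

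By the representative read the make-up at E90 was 33.0% miR-183, 13.7% miR-96 and 53.3% miR-182, miR-183 was 23.2% at P30d, and at P7y the shares were 33.5%, 17.1% and 49.4%. By mismatch-free reads miR-183 was 38.1% and miR-182 46.5% at E90, and at P7y the shares were 28.1% miR-183, 12.7% miR-96 and 59.2% miR-182.

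Counts of arms called higher and lower were 193 and 200 without a filter and 59 and 58 at 100 CPM for P30d over E90. For P7y over P30d they were 86 and 117 under TMM, 98 and 101 under DESeq2 and 67 and 339 without a filter, with 93 lower at 100 CPM. For P7y over E90 they were 89 and 108 under TMM, 93 and 104 under DESeq2, 89 and 343 without a filter and 21 and 82 at 100 CPM. Merging names of 1 mature sequence, an alternative added after the data were seen, left 319 arms, with 107 higher and 112 lower for P30d over E90, 40 and 180 for P7y over P30d and 38 and 164 for P7y over E90, and it touched no arm of the cluster. Counting known pig miRNAs alone leaves out miR-96. The P30d library, with 85 to 189 reads per member, limits every comparison it enters.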
